A study of Homo sapiens with 6 samples.

Results

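Expression of 41 listed genes of homologous recombination, the Fanconi pathway and the DNA damage checkpoint was examined on 6 arrays, all hybridised with RNA of A2780, an established cell line from human ovarian cancer. The genes were chosen by symbol, from the platform annotation of the array's probe sets, by a list drawn up with earlier results of these data known. Of the 41, 35 had a probe set annotated to them alone, 2 (RAD51D and ATRIP) were read only by a probe set shared with another gene, and 4 had no probe set in the annotation used here and were not analysed. The 35 stand among 18420 genes tested. Cells were infected with lentivirus that carried a short hairpin RNA (shRNA, hereafter hairpin), which lowers a chosen transcript, and RNA was taken at 96 hours. The groups were BMI1 knockdown (BMI1 shRNA1 and BMI1 shRNA2) with its own BMI1 Ctrl, and FAL-1 knockdown (FAL-1 shRNA1 and FAL-1 shRNA2) with its own FAL-1 Ctrl. Each construct was read on 1 array, so each target has 2 hairpin arrays and 1 control array. BMI1 protein belongs to a Polycomb complex that represses transcription, and FAL-1 is a long non-coding RNA. All groups share the same cell line, lentiviral infection, medium change at 24 hours and 10% serum. Separate cultures per array are not described in the labels.

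Homologous recombination repairs a broken chromosome by copying the sister chromatid, and is used mainly after DNA replication. Broken ends are trimmed to single strands, a recombinase is loaded with the help of the BRCA proteins, and the joined molecules are later separated. The Fanconi pathway removes crosslinks between DNA strands and hands the break it makes to recombination. The checkpoint kinases ATM and ATR sense damage and stalled forks, and pass the signal to CHEK2 and CHEK1. Many of these genes are transcribed most strongly in the S and G2 phases of the cell cycle, and the pathway is of interest in ovarian cancer because tumours that lose it respond to platinum drugs and PARP inhibitors.

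Values are log2 array signals, so a change of -1 means that the signal was 2-fold lower. The median of an array over all its probe sets lay between 6.94 and 7.09, and arrays correlated at 0.973 to 0.995 with each other. The probe set that reads BMI1, and also the readthrough transcript COMMD3-BMI1, stood at 26.8% of its control with BMI1 hairpin 1 and at 64.0% with BMI1 hairpin 2. FAL-1 (FALEC) was not among the annotated symbols, so its knockdown was not checked. The mean level of 10 ovarian and epithelial markers was 6.95 to 7.54 over the 6 arrays, that of 5 leukocyte markers 6.30 to 6.71, that of 6 fibroblast markers 7.96 to 8.73 and that of 6 endothelial markers 6.13 to 6.25. These levels come from different probes and are not compared between lists. In bulk RNA, fewer cells that express a gene and less RNA of it per cell cannot be told apart. With so few arrays, precision is low. The p-values of limma, the linear model used, rest on the spread between hairpin 1 and hairpin 2 of each target. These hairpins are different constructs, and no construct was read on more than 1 array. Differences between constructs and technical differences therefore cannot be separated in that spread.

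Most of the 35 genes read below their own control in both knockdowns. With BMI1 knockdown 24 of 35 were below the control with both hairpins and 3 above (all genes, 30.7% below and 32.9% above). With FAL-1 knockdown 27 of 35 were below with both hairpins and 1 above (all genes, 27.7% and 37.2%). All 4 hairpins were below their own control for 18 of the 35 (all genes, 14.1%), and MUS81 alone was above with all 4 (17.0% of all genes). The median change was -0.43 with BMI1 knockdown and -0.56 with FAL-1 knockdown, beside 0.01 and 0.03 over all genes. Since the members were so chosen, these counts are descriptions.

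No single gene passed limma's test at an adjusted p of 0.05 in either knockdown, in their average or in their difference, so percent called was 0.0 in each. At an unadjusted p under 0.05 limma gave 476 genes for BMI1, 563 for FAL-1, 962 for the average and 148 for the difference. Among the 35 the lowest adjusted p in any of these comparisons was 0.907. At an unadjusted p under 0.05, none of the 35 was lower with BMI1 knockdown (1.56% of all genes), and 3, RMI1, CHEK2 and NBN, were lower with FAL-1 knockdown (1.5% of all genes). For the average of both knockdowns 2 did so, RMI1 and XRCC3 (2.87% of all genes), and for the difference none (0.467%). At that level 0 members were higher in any of the 4 comparisons, beside 1.03%, 1.55%, 2.35% and 0.337% of all genes for BMI1, FAL-1, the average and the difference. No gene below is therefore said to have passed the test, and changes are given as values, for some means with the SD of the 2 hairpins. The residual spread, on 2 degrees of freedom, was estimated from both hairpin pairs, and the single control arrays are taken to vary as much.

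**Figure D1:**
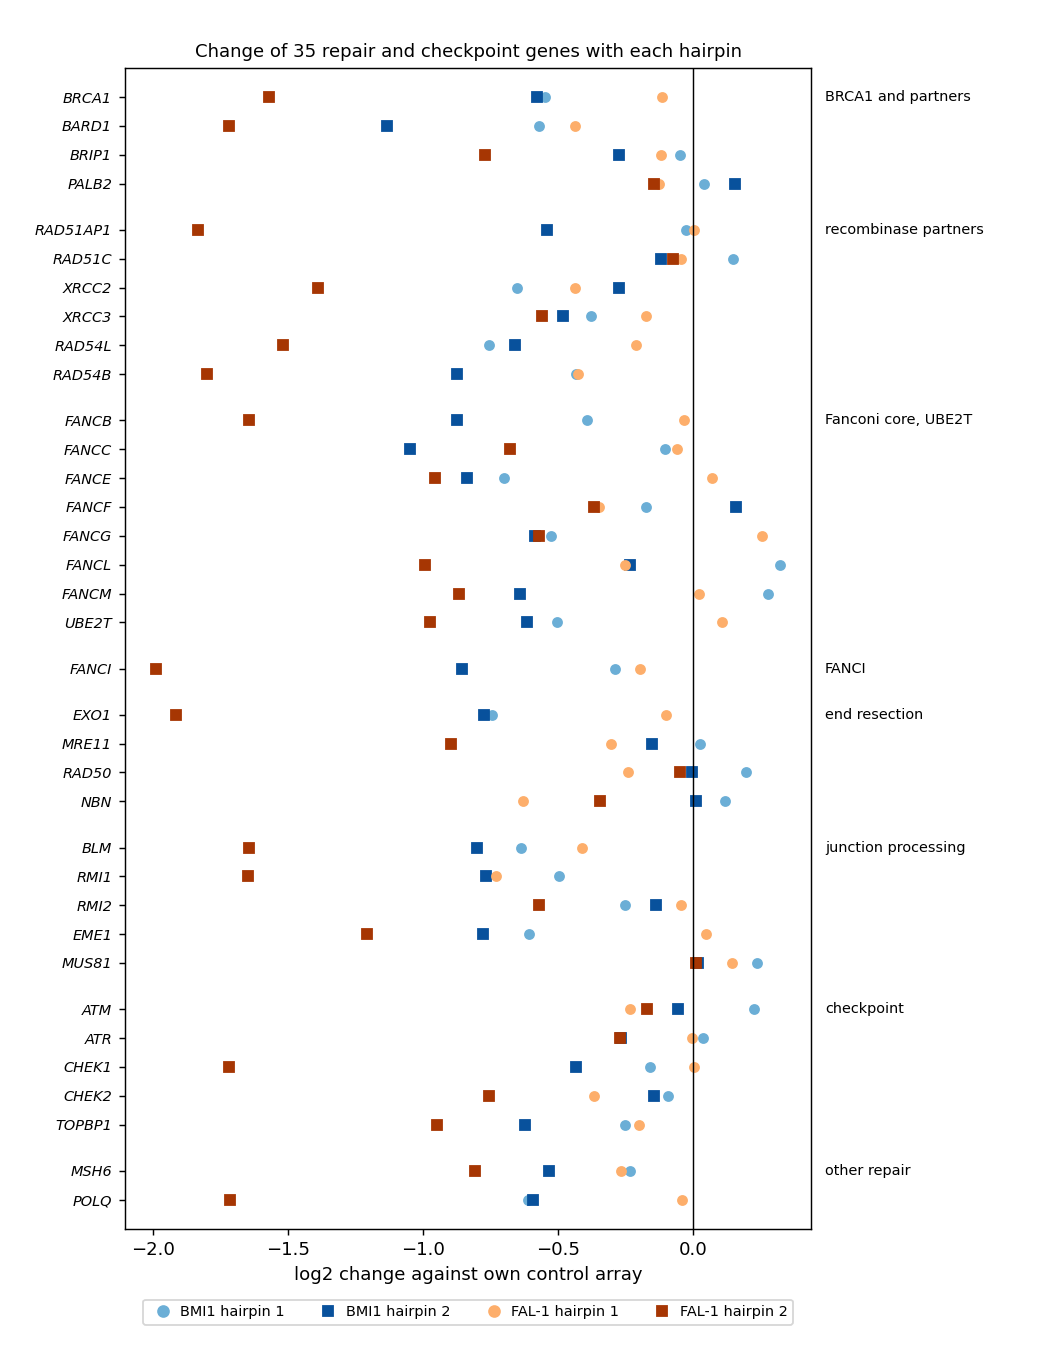
Log2 change against the target's own control array (horizontal axis) for each of the 35 genes with their own probe set, ordered by role, with 1 point for each hairpin and no error bars because each hairpin is 1 array. The dark squares of FAL-1 hairpin 2 lie furthest to the left for most genes, down to -1.99 for FANCI, while PALB2, RAD51C, RAD50, MUS81 and ATM stay near 0.

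BRCA1 and BARD1, which form a ubiquitin ligase at breaks, were lower with all 4 hairpins. BRCA1 read 9.21 and 9.18 with the BMI1 hairpins, against 9.76 in the BMI1 control, and 9.52 and 8.06 with the FAL-1 hairpins, against 9.63 in the FAL-1 control. Both controls were above all hairpin arrays. The BMI1 hairpins agreed closely for BRCA1, with a mean change of -0.56 ± 0.02 (SD, n = 2 hairpins), whereas the FAL-1 mean of -0.84 ± 1.03 (SD, n = 2 hairpins) joins a hairpin at 92.2% of the control with one at 33.6%. BARD1 read 8.47 and 7.90 with the BMI1 hairpins, against 9.04 in their control, and 8.64 and 7.36 with the FAL-1 hairpins, against 9.08 in their control. Its mean over the 4 hairpins, -0.97, was the lowest among the 35 genes. BRIP1, a helicase that binds BRCA1, differed less, at -0.05 and -0.28 with the BMI1 hairpins and at -0.12 and -0.77 with the FAL-1 hairpins. PALB2, which bridges the BRCA proteins, read 9.37 and 9.48 with the BMI1 hairpins, against 9.33 in their control, and 9.47 and 9.45 with the FAL-1 hairpins, against 9.60. It thus stood just above its control in one knockdown and just below it in the other, by 0.15 at most.

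Proteins that help the recombinase form and work its filament showed both patterns. RAD54L and RAD54B, motor proteins that act on the joined strands, were lower with all 4 hairpins. RAD54L read 8.12 and 8.22 with the BMI1 hairpins, against 8.88 in their control, and 8.55 and 7.24 with the FAL-1 hairpins, against 8.76. RAD54B read 8.80 and 8.36 with the BMI1 hairpins, against 9.23 in their control, and 8.55 and 7.17 with the FAL-1 hairpins, against 8.97. For both genes the controls lay above every hairpin array, and FAL-1 hairpin 2 was lowest. XRCC2, a paralog of the recombinase, read 9.63 and 10.00 with the BMI1 hairpins, against 10.28 in their control, and 9.81 and 8.86 with the FAL-1 hairpins, against 10.25. It was among the few members lower with BMI1 hairpin 1 than with hairpin 2. XRCC3, another paralog, was below control with every hairpin, with changes of -0.38, -0.48, -0.17 and -0.56 over the 4 hairpins in the order of targets and hairpin numbers, and an average of -0.40 (unadjusted p = 0.047, adjusted p = 0.907, limma). RAD51C, a paralog that partners XRCC3, read 10.11 and 9.84 with the BMI1 hairpins, against 9.96 in their control, and 9.89 and 9.87 with the FAL-1 hairpins, against 9.94. RAD51AP1, which stimulates strand invasion, differed by -0.03 and -0.54 with the BMI1 hairpins and by 0.00 and -1.83 with the FAL-1 hairpins. Its FAL-1 mean of -0.91 ± 1.30 (SD, n = 2 hairpins) therefore rests on hairpin 2 alone. The probe set shared by RAD51D and a readthrough transcript read 8.19 and 8.33 with the BMI1 hairpins, against 8.43, and 8.10 and 7.77 with the FAL-1 hairpins, against 8.14.

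The Fanconi core complex is the ubiquitin ligase of the crosslink pathway, FANCL is its catalytic subunit, UBE2T is its conjugating enzyme, and FANCI belongs to the clamp that it modifies. FANCI read 10.32 and 9.75 with the BMI1 hairpins, against 10.61 in their control, and 10.47 and 8.67 with the FAL-1 hairpins, against 10.66 in their control. The last value is 25.2% of the control, the furthest below control of any of the 35 genes on any array. FANCE and FANCG, subunits of the core, were lower with both BMI1 hairpins by similar amounts, with means of -0.77 ± 0.10 and -0.56 ± 0.04 (SD, n = 2 hairpins). With the FAL-1 hairpins FANCE read 0.07 and -0.96 and FANCG 0.25 and -0.57 against their control. UBE2T had the same shape, at 9.91 and 9.80 with the BMI1 hairpins, against 10.41, and at 10.36 and 9.28 with the FAL-1 hairpins, against 10.25. For these 3 genes both BMI1 hairpins and FAL-1 hairpin 2 were below control, and FAL-1 hairpin 1 was above it. FANCB, another core subunit, differed by -0.39 and -0.87 with the BMI1 hairpins and by -0.04 and -1.65 with the FAL-1 hairpins.

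Other Fanconi genes depended on the hairpin. FANCC, a core subunit, was the member with the widest gap between the BMI1 hairpins, at -0.11 and -1.05, and FANCM, the translocase that anchors the core to DNA, read 0.27 and -0.64. Against the FAL-1 control, FANCC read -0.06 and -0.68 and FANCM 0.02 and -0.87 with the FAL-1 hairpins. FANCL read 10.19 and 9.64 with the BMI1 hairpins, against 9.87 in their control, and 9.08 and 8.34 with the FAL-1 hairpins, against 9.33. Its values on all 3 FAL-1 arrays were below those on all 3 BMI1 arrays, so the FAL-1 control was itself 0.54 lower than the BMI1 control. FANCF, a core adaptor, was at -0.18 and 0.16 with the BMI1 hairpins and at -0.35 and -0.37 with the FAL-1 hairpins.

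Among genes that trim broken ends, EXO1 was below control with all 4 hairpins. EXO1, a nuclease of long-range resection, read 9.10 and 9.07 with the BMI1 hairpins, against 9.84 in their control, and 9.56 and 7.74 with the FAL-1 hairpins, against 9.66 in their control. The BMI1 mean was -0.76 ± 0.02 (SD, n = 2 hairpins). The FAL-1 hairpins stood at 93.2% and 26.5% of their control. MRE11, RAD50 and NBN form the complex that first binds and cuts the ends. RAD50 read 10.95 and 10.75 with the BMI1 hairpins, against 10.76, and 10.64 and 10.83 with the FAL-1 hairpins, against 10.88. NBN read 9.82 and 9.71 with the BMI1 hairpins, against 9.70, and 9.40 and 9.69 with the FAL-1 hairpins, against 10.03. NBN was thus the member with an unadjusted p under 0.05 whose lowest array was FAL-1 hairpin 1 (mean -0.49 ± 0.20, SD, n = 2 hairpins, adjusted p = 0.9991, limma), and against the BMI1 control that mean was -0.15. MRE11 differed by 0.02 and -0.15 with the BMI1 hairpins and by -0.31 and -0.90 with the FAL-1 hairpins.

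BLM, RMI1 and RMI2 belong to the complex that dissolves the joined molecules without exchange, and MUS81 and EME1 form a nuclease that cuts them. BLM read 9.38 and 9.22 with the BMI1 hairpins, against 10.02 in their control, and 9.48 and 8.25 with the FAL-1 hairpins, against 9.90. RMI1 read 8.72 and 8.45 with the BMI1 hairpins, against 9.22 in their control, and 8.53 and 7.62 with the FAL-1 hairpins, against 9.27. RMI1 was lower by 1.5-fold or more with both FAL-1 hairpins, the one member to be so (0.635% of all genes), with a mean of -1.19 ± 0.65 (SD, n = 2 hairpins, unadjusted p = 0.040, adjusted p = 0.9991, limma). RMI2 differed less, at -0.25 and -0.14 with the BMI1 hairpins and at -0.05 and -0.57 with the FAL-1 hairpins. EME1 and MUS81, partners in 1 enzyme, had unlike values. EME1 read 7.80 and 7.63 with the BMI1 hairpins, against 8.41, and 8.21 and 6.96 with the FAL-1 hairpins, against 8.16. MUS81 read 8.64 and 8.43 with the BMI1 hairpins, against 8.41, and 8.75 and 8.62 with the FAL-1 hairpins, against 8.61. The difference between the partners was not tested.

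Of the checkpoint genes, TOPBP1 and CHEK2 read below control with all 4 hairpins and CHEK1 with all but FAL-1 hairpin 1. The sensor kinases ATM and ATR stayed closer to control than these genes with FAL-1 hairpin 2, but not with every hairpin. CHEK1, the kinase that ATR activates, read 10.23 and 9.96 with the BMI1 hairpins, against 10.39, and 10.37 and 8.65 with the FAL-1 hairpins, against 10.37. Its low value on 1 array, at 30.4% of the control, carries the FAL-1 mean. TOPBP1, the activator of ATR, read 10.51 and 10.14 with the BMI1 hairpins, against 10.76, and 10.66 and 9.91 with the FAL-1 hairpins, against 10.86. CHEK2, the kinase downstream of ATM, differed by -0.09 and -0.14 with the BMI1 hairpins and by -0.37 and -0.76 with the FAL-1 hairpins (FAL-1 mean -0.56 ± 0.28, SD, n = 2 hairpins, unadjusted p = 0.046, adjusted p = 0.9991, limma). ATM read 10.29 and 10.01 with the BMI1 hairpins, against 10.07, and 9.92 and 9.99 with the FAL-1 hairpins, against 10.16. ATR differed by 0.04 and -0.27 with the BMI1 hairpins and by -0.01 and -0.27 with the FAL-1 hairpins. The probe set shared by ATRIP, the partner of ATR, and TREX1 stayed within 0.13 of its control with every hairpin. In the remaining pair, POLQ, the polymerase of end joining between short repeats, differed by -0.61 and -0.59 with the BMI1 hairpins and by -0.04 and -1.71 with the FAL-1 hairpins. MSH6, a mismatch repair protein, differed by -0.24 and -0.53 with the BMI1 hairpins and by -0.27 and -0.81 with the FAL-1 hairpins.

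**Figure D2:**
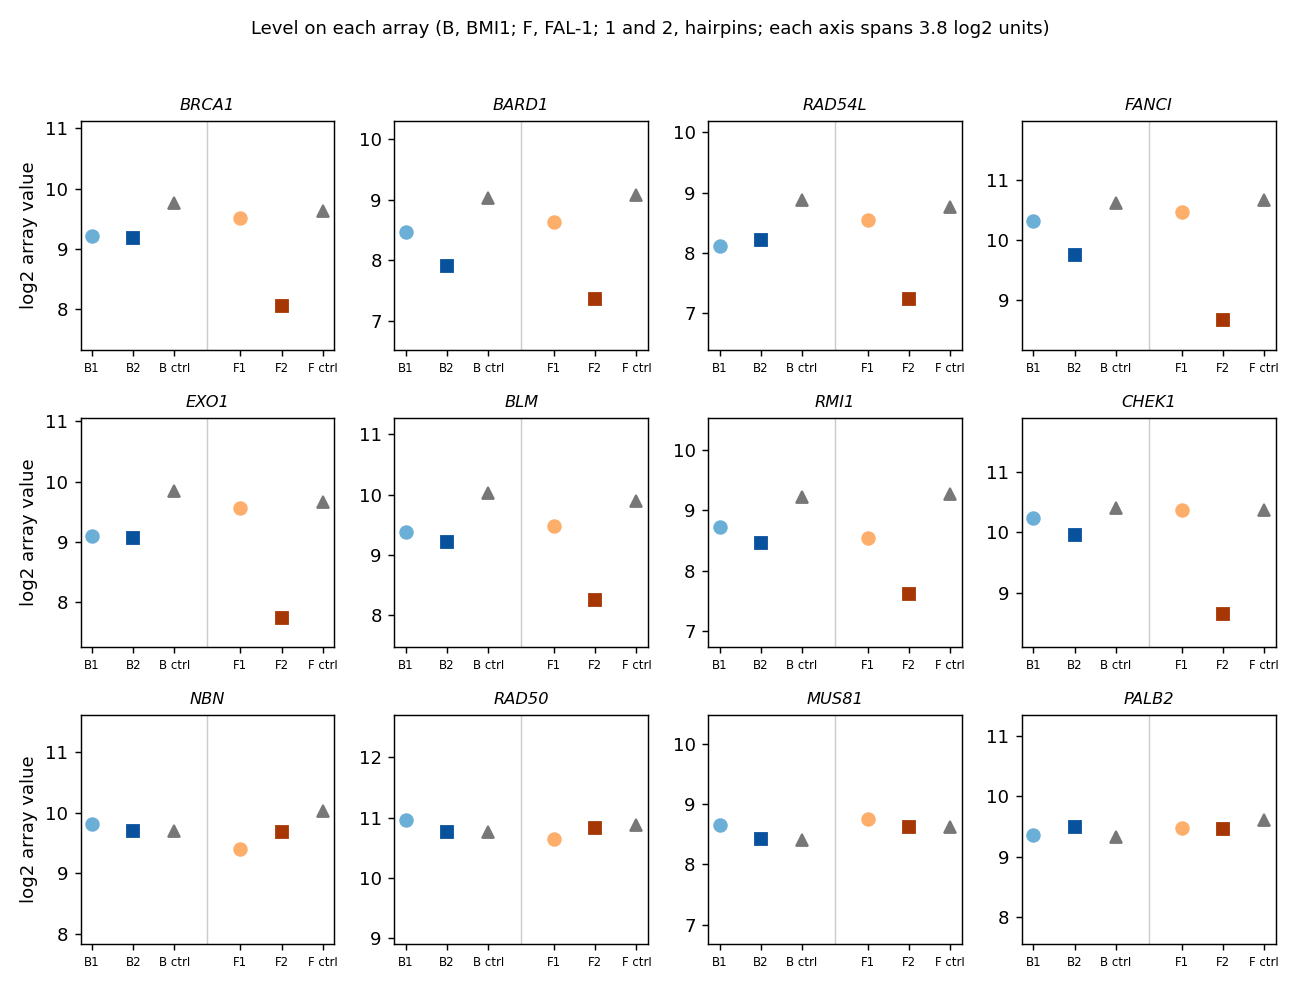
Log2 array value (vertical axis) on each of the 6 arrays for 12 of the genes, with hairpins left of their own control (triangle) for each target, 1 point per array and every vertical axis spanning the same range. In the upper 8 panels FAL-1 hairpin 2 is the lowest array, and in the lower 4 panels (NBN, RAD50, MUS81 and PALB2) it is not.

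The extent differed between hairpins of the same target. BMI1 hairpin 1, with the lower BMI1 level, had a median change of -0.25 over the 35 genes and BMI1 hairpin 2 had -0.54. Hairpin 2 was below hairpin 1 for 29 of the 35 (all genes, 43.3%). The median was -0.13 with FAL-1 hairpin 1 and -0.95 with FAL-1 hairpin 2, which was the lower of the pair for 32 of the 35 (all genes, 43.2%). Below control, by any amount, were 25 members with BMI1 hairpin 1, 31 with BMI1 hairpin 2, 27 with FAL-1 hairpin 1 and 34 with FAL-1 hairpin 2 (all genes, 51.9%, 45.9%, 48.5% and 42.0%). FAL-1 hairpin 2 was the lowest of all 6 arrays for 26 of the 35 (all genes, 17.4%). The number of members at 1.5-fold or more below control was 7 with BMI1 hairpin 1, 16 with BMI1 hairpin 2, 2 with FAL-1 hairpin 1 and 24 with FAL-1 hairpin 2, beside 3.26%, 3.85%, 1.56% and 7.05% of all genes. No member was 1.5-fold or more above control with any of the 4 hairpins, beside 1.75%, 1.97%, 0.955% and 4.15% of all genes in the same order, nor with both hairpins of BMI1 (0.537%) or of FAL-1 (0.575%). Of the BMI1 hairpins, both passed this fold for 6 members (all genes, 0.901%): RAD54L, FANCE, EXO1, BLM, EME1 and POLQ. BARD1 just missed it, at 67.3% of control with hairpin 1. The FAL-1 median without hairpin 2 is therefore the -0.13 of hairpin 1, and without hairpin 1 it is -0.95.

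**Figure D3:**
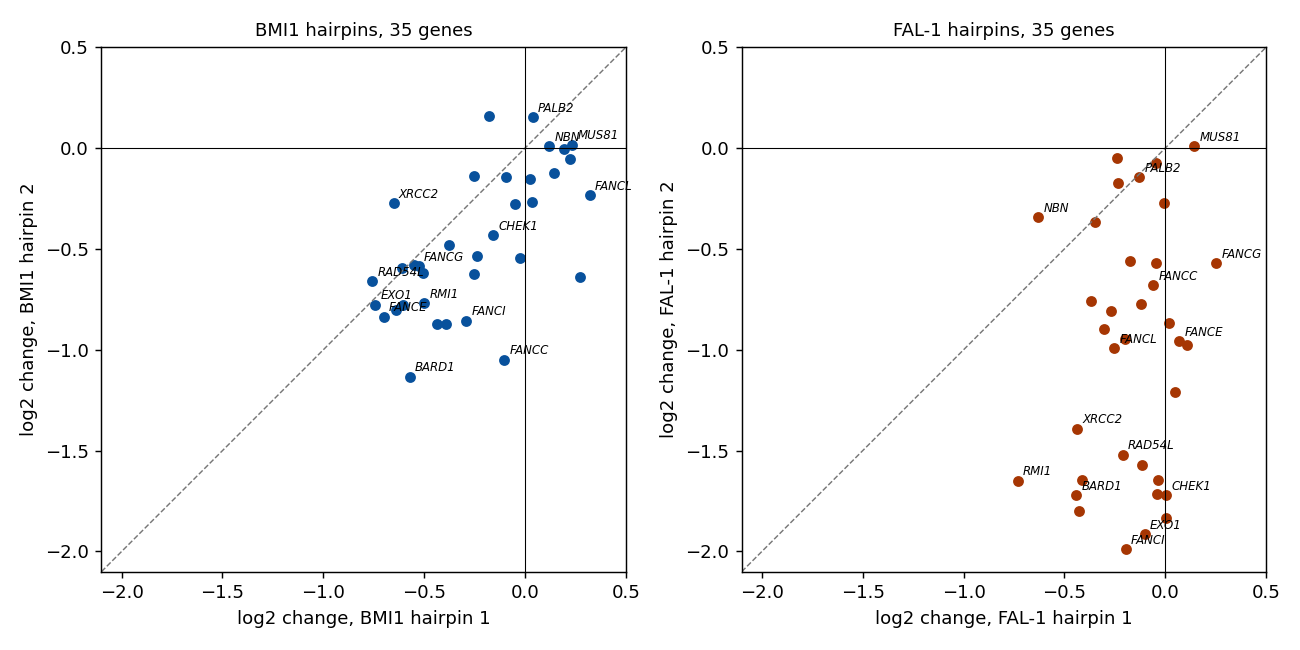
Log2 change with hairpin 2 (vertical axis) against that with hairpin 1 (horizontal axis) for the 35 genes, BMI1 on the left and FAL-1 on the right, 1 point per gene and a dashed line where both hairpins are equal. BMI1 points lie near and mostly below the line (29 of 35 below), while most FAL-1 points lie far below it (32 of 35 below), with medians of -0.13 for hairpin 1 and -0.95 for hairpin 2.

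The control arrays differed for some members. With the controls exchanged, the median change of the 35 genes was -0.39 for BMI1 and -0.58 for FAL-1. The FAL-1 control minus the BMI1 control had a median of -0.03 over the 35 genes and ranged from -0.60 for POLQ to 0.33 for NBN and RAD51AP1. Set against the FAL-1 control, the BMI1 mean of POLQ was -0.01 instead of -0.60 and that of FANCB -0.20 instead of -0.63, while FANCL read 0.59 instead of 0.04. Set against the BMI1 control, the FAL-1 mean of FANCL was -1.17 instead of -0.62 and that of POLQ -1.47 instead of -0.88. The BMI1 means of MUS81, NBN and PALB2, above their own control, were -0.07, -0.27 and -0.18 against the FAL-1 control. For 13 members each control lay above all 4 hairpin arrays, so that the direction, though not the size, is the same with either control (all genes, 8.03%): BRCA1, BARD1, XRCC2, XRCC3, RAD54L, RAD54B, FANCI, EXO1, BLM, RMI1, RMI2, TOPBP1 and MSH6. Of these, RAD54B had a BMI1 mean of -0.65 against its own control and of -0.39 against the other. Another 7 stayed within 0.2 of the controls on average over the 4 hairpins: PALB2, RAD51C, FANCF, RAD50, MUS81, ATM and ATR. That average hides FANCF, which was at -0.35 and -0.37 with the FAL-1 hairpins. Both groups were drawn up after their values were seen.

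Promoters of the genes were searched for 3 short motifs that are known from cell cycle promoters. RefSeq windows of 300 bases on GRCh38.p14, from 250 before to 50 after a start site, were available for 31 of the 35 genes, with 43 windows because some genes have several starts. E2F factors, which switch on S phase genes, were searched by the spellings TTTCCCGC, TTTGGCGC, TTTCGCGC and TTTGCCGC, the cell cycle homology region (CHR) by TTTGAA and TTCGAA, and the CCAAT box by CCAAT, all on both strands, and no spelling contains another. An E2F spelling was found in 6 of the 43 windows, or 14.0%, beside 4.15% of the 20111 windows of all tested genes. CHR matches were in 11.6% of member windows (13.6% of all), and CCAAT in 48.8% (34.5% of all). Counted by gene, an E2F spelling was held by 784 of 14240 tested genes with a window, by 5 of the 10 with a window among the 13 genes below both controls, and by 0 of the 7 within 0.2 on average. CHR was held by 0 of those 10 genes and by 1 of the 7. CCAAT was in 41.2% of the windows of the 10 and in 55.6% of those of the 7. Since both groups were formed from the observed changes and are small, nothing is read from these shares, and a letter match is not a shown binding site. The E2F matches are printed with the surrounding 30 bases on the gene's strand, matched letters in capitals. That 5 of the 6 genes are among the 13 is no support for a link, since the 13 were picked from these values.
XRCC2, chr7:152676102-152676131, minus strand: tggcgttggtgGCGGGAAAgttgagtctct
EXO1, chr1:241848197-241848226, plus strand: aaaggtcagccTTTCGCGCgctgtgtaggc
RMI1, chr9:83980762-83980791, plus strand: ggcgcgagcgcGCGGCAAAtcgggcgggaa
TOPBP1, chr3:133661930-133661959, minus strand: ccgcgcggttgGCGCGAAAgtcggttcccg
MSH6, chr2:47783137-47783166, plus strand: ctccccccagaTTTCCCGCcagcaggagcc
FANCC, chr9:95317737-95317766, minus strand: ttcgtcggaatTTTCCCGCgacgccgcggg
FANCC, chr9:95317863-95317892, minus strand: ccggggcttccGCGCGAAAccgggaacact

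The 250 bases before the start are printed in full for 2 members of the junction group as examples of the CCAAT spelling. These are BLM, which was below both controls with every hairpin and holds 3 CCAAT boxes, at -141, -46 and -21 from the start, and MUS81, which was above its own control with every hairpin and holds 1, at -238. The pair is no sign of a difference between the groups, whose CCAAT shares are given above. Capitals mark the CCAAT box on either strand, and no E2F or CHR spelling is in these stretches.
BLM, chr15:90717096-90717345, plus strand: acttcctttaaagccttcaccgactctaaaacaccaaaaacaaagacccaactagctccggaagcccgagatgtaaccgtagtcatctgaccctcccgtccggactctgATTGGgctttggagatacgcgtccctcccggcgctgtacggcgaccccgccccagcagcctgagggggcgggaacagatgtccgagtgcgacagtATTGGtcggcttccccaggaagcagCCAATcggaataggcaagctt
MUS81, chr11:65860183-65860432, plus strand: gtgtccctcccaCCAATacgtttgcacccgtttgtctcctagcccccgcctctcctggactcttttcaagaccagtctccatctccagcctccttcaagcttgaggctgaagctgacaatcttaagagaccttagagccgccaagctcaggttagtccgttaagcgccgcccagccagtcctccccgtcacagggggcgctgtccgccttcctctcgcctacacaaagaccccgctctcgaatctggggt

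By their medians, proliferation markers were lower on the same arrays as the recombination genes, though only slightly with FAL-1 hairpin 1. Some, among them MKI67, CDC6 and MCM5, were above control with that hairpin. All 20 of 20 markers were below control with both BMI1 hairpins and 13 of 20 with both FAL-1 hairpins (all genes, 30.7% and 27.7%). Their median changes were -0.41 and -0.70 with the BMI1 hairpins and -0.06 and -1.10 with the FAL-1 hairpins, in the same order as the -0.25, -0.54, -0.13 and -0.95 of the 35 genes. Their mean level was 10.01 and 9.82 with the BMI1 hairpins, against 10.42 in their control, and 10.35 and 9.32 with the FAL-1 hairpins, against 10.42. Among them CCNE2, a cyclin of S phase entry, differed by -0.58 and -1.01 with the BMI1 hairpins and by -0.34 and -1.90 with the FAL-1 hairpins. TOP2A, a topoisomerase of dividing cells, read -0.68 and -0.75 for BMI1 and -0.28 and -1.64 for FAL-1. MCM6, a subunit of the replicative helicase, read -0.78 and -0.85 for BMI1 and -0.04 and -1.16 for FAL-1. CDKN1A, which encodes the cyclin kinase inhibitor p21, read 10.34 and 10.65 with the BMI1 hairpins, against 9.50, and 10.17 and 11.70 with the FAL-1 hairpins, against 9.65. The part of proliferation or p21 in the lower repair genes was not tested. On the array of FAL-1 hairpin 2, the epithelial markers KRT8 and KRT19 read 11.07 and 8.57, against 9.28 and 6.72 in the FAL-1 control, and the macrophage marker CD68 9.23, against 8.34. These 3 were named after their values were seen, and their part in the result was not tested. Over the 10 ovarian and epithelial markers the median change with FAL-1 hairpin 2 was 0.22 (-0.06 to 1.85). Over the 5 leukocyte markers it was 0.11 (-0.09 to 0.89).

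None of the other listed repair genes passed limma's test in either direction. Over all genes, 30.7% were below control with both BMI1 hairpins and 27.7% with both FAL-1 hairpins, while 32.9% and 37.2% were above. These shares stand beside every count in this paragraph. Of 43 other recombination and Fanconi genes, 26 were below control with both BMI1 hairpins and 27 with both FAL-1 hairpins, while 6 and 8 were above. Their medians were -0.18 and -0.17. Those with the largest mean change were DMC1, a meiotic recombinase, at -0.90, -0.70, -0.19 and -1.55 with the 4 hairpins in the order BMI1 then FAL-1, and ZGRF1, a helicase, at -0.69, -0.81, -0.19 and -1.65. DNA2, a resection nuclease, read -0.28, -1.10, -0.27 and -1.54, and FIGNL1, which acts on the recombinase filament, -0.47, -0.86, -0.41 and -1.32. Of 23 other checkpoint genes, 13 were below with both BMI1 hairpins and 9 with both FAL-1 hairpins, while 4 and 3 were above. CLSPN, the adaptor that brings CHEK1 to ATR, was lowest at -0.81, -1.004, -0.16 and -1.93, although a dimmer probe set of CLSPN was above control with FAL-1 hairpin 1. Of 11 end joining genes 4 were below with both BMI1 hairpins and 4, not all the same genes, with both FAL-1 hairpins, with medians of -0.11 and -0.06. Of 16 nucleotide excision genes 3 were below with both BMI1 hairpins and 4 with both FAL-1 hairpins, with medians of -0.01 and -0.04. Base excision had 10 and 8 of 17 genes below and medians of -0.16 and -0.12, and mismatch repair had 2 and 4 of 4 genes below and medians of -0.11 and -0.36. The differences between these lists and the 35 genes were not tested.

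**Figure D4:**
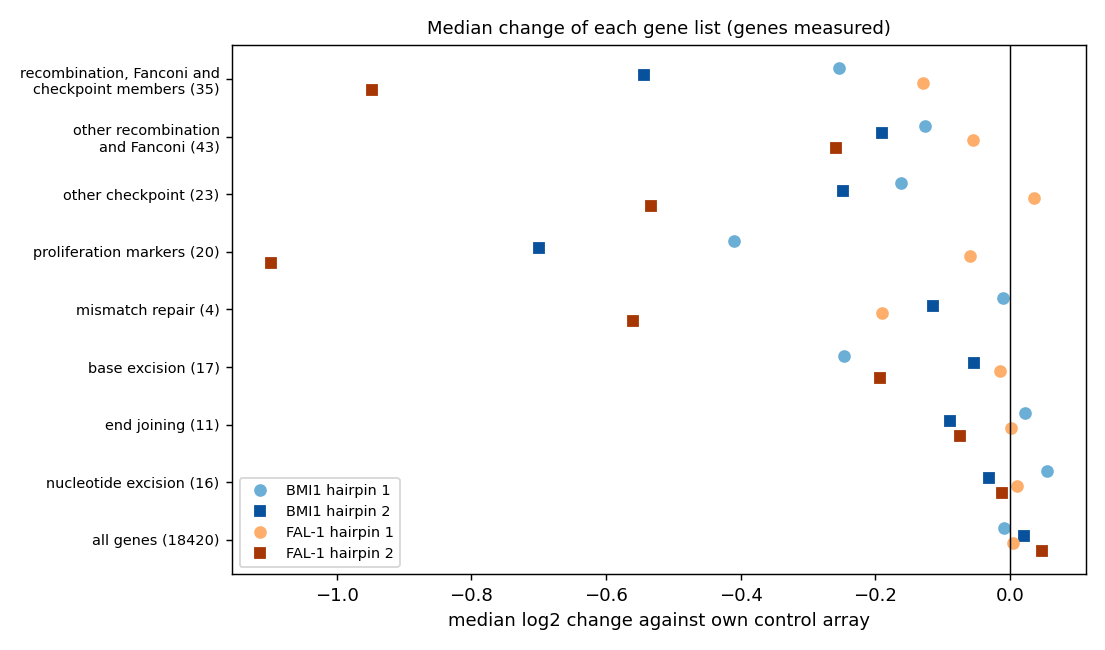
Median log2 change (horizontal axis) of each gene list with each of the 4 hairpins, with the number of genes measured in brackets and 1 point per hairpin array. The recombination, Fanconi and checkpoint members and the proliferation markers are lowest with FAL-1 hairpin 2, at -0.95 and -1.10, while end joining, nucleotide excision and all genes stay near 0 with every hairpin. Between them with FAL-1 hairpin 2 are mismatch repair at -0.56, other checkpoint at -0.53, other recombination and Fanconi at -0.26 and base excision at -0.19.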

How the data were processed

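Total RNA was amplified, labelled and hybridised to 1-colour arrays, per the labels' protocols. The deposited values are log2 probe set summaries made with RMA, per the submitters' processing notes, with its version and joint normalization not given in the sources used here. RMA evens out arrays, so a shift of all genes could not be seen. Of 33252 probe sets, 19460 had 1 gene symbol, 1754 several and 12038 none in the annotation used. Each gene was represented by its brightest probe set, and no member had more than 1. Groups came from the labels. All 6 arrays entered 1 limma 3.58.1 fit (R 4.3.3; lmFit, eBayes, 4 group means), two-sided, with Benjamini-Hochberg adjustment over 18420 genes, and the fit was tested on simulated data. An exact permutation test of 1 against 2 arrays cannot go below p = 0.333, so none was run. The members and lists were chosen with earlier results of these data known. All members with a probe set of their own are named, and of each other repair list and the proliferation list up to 4 genes with the largest mean change in size. Cell type markers are given as whole lists, and KRT8, KRT19 and CD68 are also named singly, picked after their values were seen. Alternatives were other controls, quantile and cyclic loess normalization, a dim gene filter, the mean of probe sets, other variance priors, a hairpin number block, a looser threshold and leaving out each hairpin array. Counting the shared probe sets was added after seeing the data. Sequences are RefSeq's on GRCh38.p14. Figures used matplotlib 3.10.9 (Python 3.11.15).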

Additional observations from a re-analysis of the deposited data

Results flagged for a closer look

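PALB2 and NBN read above the control with both BMI1 hairpins and below it with both FAL-1 hairpins. The FAL-1 change minus the BMI1 change was -0.23 for PALB2 and -0.55 for NBN, and neither difference passed limma's test (adjusted p = 0.9999 for each). Both genes read higher in the FAL-1 control than in the BMI1 control, by 0.27 for PALB2 and 0.33 for NBN.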

How the results depend on the processing

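No gene passed the threshold under any alternative that kept all hairpin arrays (limma). The hairpin arrays share only a number across targets (deviations correlated at 0.275 across genes), and with that number as a replicate block 0 genes passed in each comparison. Leaving out 1 hairpin array moved the members' median between -0.54 and -0.25 for BMI1 and between -0.95 and -0.13 for FAL-1, and the count below control between 25 and 31 and between 27 and 34; counts of genes past the threshold stayed at 0 (lowest and highest 0). With the other choices the counts were 23 to 25 and 27 to 29. Of 770 member values under the alternatives 743 kept their direction and 27 reversed. With pooled controls, PALB2 and NBN read -0.040 and -0.10 for BMI1. With the other target's control, the BMI1 values were -0.18 for PALB2, -0.029 for RAD50, -0.27 for NBN, -0.074 for MUS81, -0.0048 for ATM and 0.083 for CHEK2, and the FAL-1 value of PALB2 was 0.13. Quantile normalization gave 0.037 for FANCF and 0.0052 for MRE11, and cyclic loess 0.0012 for FANCF, for BMI1. Leaving out a BMI1 hairpin gave -0.12 to 0.14 for RAD51C, -0.18 to 0.16 for FANCF, -0.23 to 0.32 for FANCL, -0.64 to 0.27 for FANCM, -0.15 to 0.024 for MRE11, -0.0044 to 0.19 for RAD50, -0.056 to 0.22 for ATM and -0.27 to 0.037 for ATR. Leaving out a FAL-1 hairpin gave -1.83 to 0.0037 for RAD51AP1, -0.96 to 0.069 for FANCE, -0.57 to 0.25 for FANCG, -0.87 to 0.020 for FANCM, -0.98 to 0.11 for UBE2T, -1.21 to 0.047 for EME1 and -1.72 to 0.0031 for CHEK1, the higher value without hairpin 2 in each. The cause was not tested. With 1 array per construct, a lone control's error enters every change, and signal over background was not given.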

Other observations

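Of the base excision, end joining, nucleotide excision and mismatch repair genes outside the 35, none passed limma's test. UNG, the glycosylase that removes uracil from DNA, read 7.63 and 8.85 with the FAL-1 hairpins, against 9.48 in their control, so it was lower with hairpin 1 than with hairpin 2, unlike most recombination genes. With the BMI1 hairpins it read 9.20 and 9.19, against 9.51. NEIL3, a glycosylase of dividing cells, differed by -0.44 and -1.16 with the BMI1 hairpins and by -0.44 and -1.89 with the FAL-1 hairpins. PARP1, a sensor of strand breaks, differed by -0.25 and -1.30 with the BMI1 hairpins and by -0.22 and -0.66 with the FAL-1 hairpins. LIG4, the ligase of end joining, was above control with all 4 hairpins, by 0.40 and 0.09 with BMI1 and by 0.36 and 0.58 with FAL-1. XPC, a damage sensor of nucleotide excision, was above control with all 4 as well, by 0.45 and 0.29 with BMI1 and by 0.32 and 0.32 with FAL-1.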
